A study of Mus musculus with 8 samples.

Results

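Gene expression in TTE3, a mouse Sertoli cell line, was compared between 12 h and 6 h of exposure to 0.2 mM bisphenol A (BPA), a plastics monomer with weak estrogenic activity. The comparison rests on 4 of the 8 arrays in the time course, 2 at 12 h and 2 at 6 h, chosen by their titles. The other 4 arrays, 2 at 0 h and 2 at 3 h, give the earlier levels of each gene and add to the estimate of the spread. Every group is the same line, obtained from transgenic mice with a temperature-sensitive form of the simian virus 40 large T-antigen, so all groups share this viral oncoprotein. No array of cells kept 12 h without BPA was analysed here, so the exposure and the time in culture cannot be told apart. Nothing in the labels tells whether paired arrays are separate cultures or repeats of a single RNA, so p-values here reflect only the scatter of these arrays, and that scatter may be technical.

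Signals are the authors' probe set intensities on Affymetrix mouse 430A arrays, on a linear scale, and the brightest probe set, by mean log2 signal, stood for each gene. With 2 arrays a time, precision is limited throughout. The median signal was between 150.85 and 170.05 on the 8 arrays, and the 3' to 5' signal ratio of the Gapdh controls was between 0.7135 and 0.8203. Over the genes tested, the log2 signals of the 6 h pair correlated at 0.974 and those of the 12 h pair at 0.977, against 0.965 to 0.973 for a 6 h array and a 12 h array. The arrays of 3 h and 6 h correlated at up to 0.975, as closely as the 6 h pair. Of 27 Sertoli cell marker genes on the array, 16 passed the filter on low signals, among them Gata4, Vim, Gja1 and Cdh2. Amh, Fshr, Dhh and Cldn11, which also mark Sertoli cells, did not pass. The summed signal of all 27 was 37580 and 42490 on the 6 h arrays and 37220 and 38550 on the 12 h arrays. Vim and Ctsl contributed most to that sum. Of the 16 that passed, 1 fell (6.25%, against 3.85% of all genes tested). It was the secreted chaperone Clu (log2 change -0.48 ± 0.11, limma adjusted p = 0.0299), a call kept in 9 of the 18 alternative fits described below. Of the germ cell markers Kit and Zbtb16 were among the 3 of 13 that passed, while Ddx4, Dazl and Sycp3 did not. In such bulk samples, fewer cells of a type and less RNA per cell cannot be told apart.

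Cells short of an amino acid, or with unfolded protein in the endoplasmic reticulum (ER), phosphorylate the initiation factor eIF2alpha. General translation is then slowed while the transcription factor ATF4 is made, and ATF4 binds composite C/EBP-ATF sites in genes for amino acid synthesis, amino acid uptake and tRNA charging. Unfolded protein also activates ATF6 and XBP1, which bind ER stress response elements in chaperone genes. Immediate early genes such as Fos and Egr1 are transcribed within minutes of a stimulus and usually decline soon after, and YAP with its DNA-binding partners of the TEAD family drives Ccn1, Ccn2 and other genes that answer to cell shape and matrix stiffness.

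Of 8675 genes tested, 414 changed between 6 h and 12 h, which is 4.77%. A gene was called changed at an adjusted p under 0.05 in limma with Benjamini-Hochberg adjustment, and changes are differences of log2(signal + 7.9). Falls were the more frequent: 334 genes were lower at 12 h (3.85%) and 80 were higher (0.922%). The change reached 2-fold in 62 of the lower and 8 of the higher genes. In all 414 both 12 h arrays lay beyond both 6 h arrays, and the median log2 change was -0.72 in the lower and 0.58 in the higher genes, against -0.02 in all genes tested. The balance of directions depends on the scaling of the arrays. When the arrays were set to the same median signal, the median change of all genes moved up by 0.10 to 0.08, and 184 genes were higher and 199 lower. The share of falls among the called genes was then 52.0% in place of 80.7%. Single arrays also weighed on the count. It was 154 without replicate 1 at 12 h, 247 and 255 without replicates 1 and 2 at 0 h, and between 283 and 428 without any other single array. The higher genes numbered 20 without replicate 1 at 12 h, 45 without replicate 2 at 12 h, 41 without either 0 h array and 129 without replicate 2 at 6 h. Of the 414 calls, 57 (11 higher and 46 lower) held in all 18 alternatives run. Such genes are said below to have held throughout.

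**Figure D1:**
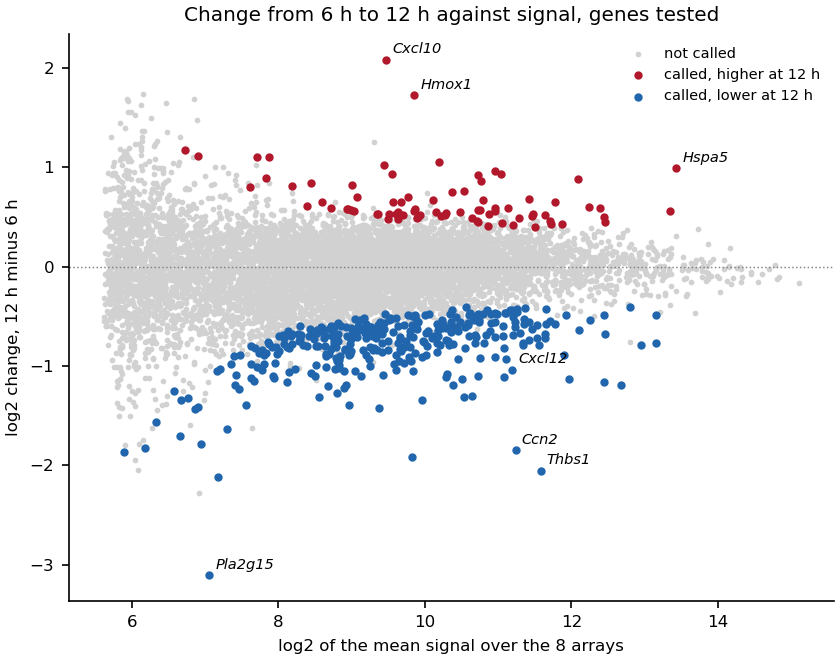
Log2 change from 6 h to 12 h of BPA (vertical axis) against log2 of the mean signal over the 8 arrays (horizontal axis) for the 8675 genes tested; coloured points are the 80 genes called higher and the 334 called lower. Cxcl10 and Hmox1 are the highest of the called genes, Thbs1 and Ccn2 are labelled among the falls, and Pla2g15, at the bottom left, is a dim gene with 12 h signals of 16.1 and 8.5.

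Of the 80 genes called higher at 12 h, the chemokine gene Cxcl10 and the heme oxygenase gene Hmox1 had the widest changes. Cxcl10, which encodes an attractant of activated T cells, read 81.8 and 126.3 at 0 h, 190.7 and 109.5 at 3 h, 448.2 and 532.2 at 6 h, and 2028.7 and 2168.1 at 12 h. Both 12 h arrays stood well above the 6 h pair, which already lay above every earlier array. The change was 4.24-fold (log2 2.08 ± 0.24, SE, n = 2 arrays each; limma adjusted p = 0.000554). Hmox1, which encodes the enzyme that breaks down heme and is a classical target of the oxidant sensor NRF2, read 404 and 358.3 at 0 h, 330.8 and 455.8 at 3 h, 566.7 and 791.2 at 6 h, and 2176.5 and 2302.6 at 12 h. Its 0 h and 3 h arrays overlapped, and the 12 h pair lay far above all others. The change was 3.32-fold (log2 1.73 ± 0.18, adjusted p = 0.000254). Cxcl10 and Hmox1 held throughout.

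Of 18 inflammation and NF-kB targets that passed the filter, Cxcl10 rose, Ccl2 fell (5.56% in each direction, against 0.922% higher and 3.85% lower of all genes) and the other 16 were not called. Ccl2, a monocyte chemokine gene, read 1213.1 and 1220.5 at 6 h and 746.8 and 717.1 at 12 h (log2 -0.73 ± 0.14, adjusted p = 0.00959). Ptgs2, the inducible cyclooxygenase, was at 1135.9 and 1212.3 and then 1916.7 and 1429.7, a difference of 0.49 ± 0.18 that did not pass (adjusted p = 0.134). Of 26 NRF2 antioxidant targets, 3 rose (Hmox1, the sulfiredoxin gene Srxn1 and the autophagy receptor gene Sqstm1; 11.5%, against 0.922% of all genes) and none fell, with a median of -0.02 over the list. Srxn1 changed by 0.58 ± 0.15 (adjusted p = 0.0436) and Sqstm1 by 0.56 ± 0.13 (adjusted p = 0.0269). These 2 calls were lost in 11 and 7 of the 18 alternatives.

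The genes for making, importing and charging amino acids held the most rises of the 33 lists. Of its 30 members on the array, all of which passed the filter, 11 rose (36.7%, against 0.922% of all genes) and 1 fell, and the median change was 0.45. The 11 span 4 steps: asparagine synthesis (Asns), serine and one-carbon metabolism (Phgdh, Psph, Shmt2, Mthfd2), uptake (Slc7a5, Slc6a9) and tRNA charging (Tars, Nars, Eprs, Gars). The list was assembled with earlier results of these data known.

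The promoters below are those of 3 genes of these programmes that rose, each given as the 250 bases before the RefSeq transcription start in the mouse build GRCm38.p6, 5′ to 3′ on the gene's strand. Capitals mark the composite C/EBP-ATF motif TGATGNAA (or its reverse complement) in Asns and Herpud1, and the ER stress response element in Hspa5, which was searched as CCAAT and CCACG with 9 bases between them. Ddit3 and Trib3, which also rose, had been chosen for printing as well and are not shown. The Ddit3 window held neither element, and the only Trib3 match, to the composite motif, lay after the start, at positions 14 to 21. The windows are chr6:7693210-7693459 on the minus strand for Asns, chr8:94386179-94386428 on the plus strand for Herpud1 and chr2:34771840-34772089 on the plus strand for Hspa5.
Asns: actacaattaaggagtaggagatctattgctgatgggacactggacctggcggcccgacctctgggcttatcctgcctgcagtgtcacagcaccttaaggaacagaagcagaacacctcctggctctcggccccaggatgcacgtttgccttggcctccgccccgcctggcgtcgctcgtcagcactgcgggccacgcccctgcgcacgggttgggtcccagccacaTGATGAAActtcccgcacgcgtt
Herpud1: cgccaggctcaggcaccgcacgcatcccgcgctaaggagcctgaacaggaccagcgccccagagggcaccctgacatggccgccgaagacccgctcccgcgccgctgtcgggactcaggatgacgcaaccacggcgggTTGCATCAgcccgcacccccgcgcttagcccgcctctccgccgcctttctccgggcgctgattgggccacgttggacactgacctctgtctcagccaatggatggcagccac
Hspa5: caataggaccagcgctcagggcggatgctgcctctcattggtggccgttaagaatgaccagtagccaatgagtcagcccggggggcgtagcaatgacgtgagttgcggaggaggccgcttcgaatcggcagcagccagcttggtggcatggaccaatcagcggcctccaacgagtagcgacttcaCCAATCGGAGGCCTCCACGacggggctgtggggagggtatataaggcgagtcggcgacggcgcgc

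On both strands of windows from 250 bases before to 50 after the start, the composite motif was found in 7 of the 63 rising genes with a window (11.1%): Asns, Herpud1, Trib3, Tars, Gars, Nupr1 and Arl14ep. None of these matches overlapped another motif searched. It was found in 6 of the 268 falling genes with a window (2.24%), in 2.58% of the 7098 tested genes with a window and in 3.97% of all 32851 windows. In the form searched, the ER stress response element was in 1 of the 63 rising genes, Hspa5, in none of the 268 falling genes and in 0.119% of all windows. Other forms of that element were not searched, in Herpud1 or elsewhere. The AP-1 motif (TGACTCA or TGAGTCA) was in as many rising genes as the composite motif, 7 of 63 (11.1%), in 4.85% of the falling genes, 4.89% of the tested genes and 5.20% of all windows. The E-box CACGTG was in 11.1% of the rising, 12.7% of the falling and 12.2% of the tested genes and in 7.15% of all windows. The cyclic AMP element TGACGTCA was in 4.76%, 3.73% and 3.61% of these genes and in 1.79% of all windows. These shares are descriptions of letters in a window, and no test was run on them.

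Asns, asparagine synthetase, read 656.6 and 722.7 at 0 h, 1003.3 and 933.3 at 3 h, 2353.9 and 2300.9 at 6 h, and 4566.2 and 4333.9 at 12 h. Its array pairs did not overlap at any time and stood highest at 12 h, and the change from 6 h was 1.91-fold (log2 0.93 ± 0.11, adjusted p = 0.000598). Slc7a5, the light chain of the transporter for leucine and other large neutral amino acids, read 345.8 and 437.4 at 0 h, 647.3 and 518.2 at 3 h, 1182.6 and 1226.2 at 6 h, and 2428.8 and 2594.3 at 12 h. Each pair lay above the one before, and the last change was 2.08-fold (log2 1.05 ± 0.15, adjusted p = 0.00207). Tars, the cytosolic threonyl-tRNA synthetase, was flat before that step, at 1640.1 and 1431.5, then 1786.7 and 1490.8, then 1766 and 1466.9 at 6 h, and read 3256.4 and 3044.6 at 12 h. Only the 12 h pair stood apart (1.95-fold, log2 0.96 ± 0.13, adjusted p = 0.00207). Asns, Slc7a5 and Tars held throughout.

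The other rises in the list were smaller. They ran from 0.42 ± 0.11 (Phgdh, the first enzyme of serine synthesis, adjusted p = 0.0456) to 0.82 ± 0.19 (Slc6a9, a glycine transporter, adjusted p = 0.0275). The Phgdh call was kept in 5 of 18 alternatives and the Slc6a9 call in 10. Nars, the asparaginyl-tRNA synthetase, went from 3375.4 and 3527.6 to 5667.9 and 5221 (0.66 ± 0.11, adjusted p = 0.00464). The exception was Slc38a2, a transporter for small neutral amino acids, which fell from 2247.4 and 3286.1 to 1795.6 and 1823.2 (-0.58 ± 0.15, adjusted p = 0.0413), a call lost in 12 of 18 alternatives. Slc7a11, the cystine transporter, was at 159.8 and 181.5 and then at 369.1 and 330.5, but its error was wide (95% interval of the log2 change 0.20 to 1.81) and it did not pass (adjusted p = 0.146). The count of 11 rises was 4 without replicate 1 at 12 h, 6 without replicate 2 at 6 h or at 12 h, 7 without either 0 h array, and 3 when the spread was estimated without its trend on intensity.

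**Figure D2:**
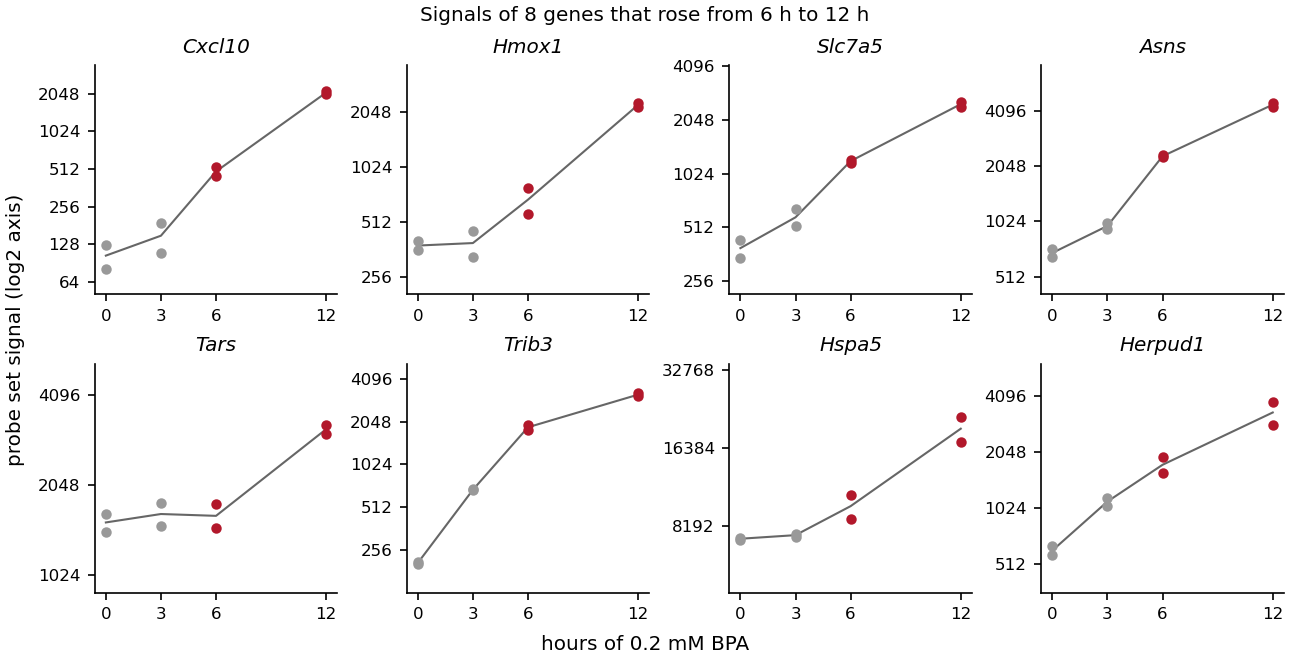
Signal of genes that rose from 6 h to 12 h (vertical axis, log scale) at 0, 3, 6 and 12 h of BPA (horizontal axis); each point is 1 array and the lines join the means of 2 arrays. Cxcl10, Hmox1 and Tars stand apart at 12 h, while Asns and Trib3 are also higher at 6 h than at 3 h.

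Of 24 ATF4 and CHOP targets tested, the list holding both factors, 7 rose (29.2%, against 0.922% of all genes) and 1 fell, with a median of 0.11. Atf4 read 13556.3 and 12138 at 6 h and 12310.8 and 11862.7 at 12 h (-0.09 ± 0.11, adjusted p = 0.708, 95% interval -0.32 to 0.14). Its arrays overlapped, and the sign of this small difference turned when the arrays were set to the same median (0.02). Atf3, which encodes a partner of ATF4, differed by 0.09 ± 0.11 (adjusted p = 0.705), and Chac1, a glutathione-degrading enzyme and ATF4 target, by -0.19 ± 0.13 (adjusted p = 0.442). Atf3, Atf4 and Chac1 were not called in any alternative.

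Trib3, a pseudokinase gene induced by ATF4 and CHOP, read 206.2 and 210.6 at 0 h, 675 and 685.3 at 3 h, 1952 and 1786 at 6 h, and 3075 and 3260.9 at 12 h. The pairs were apart at every time, with the 12 h pair highest (1.69-fold, log2 0.76 ± 0.11, adjusted p = 0.00276), and the call held throughout. Ddit3, which encodes CHOP itself, read 6738.7 and 7084.6 at 6 h and 10492.4 and 9116.7 at 12 h. The pairs were apart (0.50 ± 0.11, adjusted p = 0.0242), but the call was lost without replicate 1 at 12 h (adjusted p = 0.182) and without replicate 1 at 6 h (adjusted p = 0.0744). A similar loss was seen for Ppp1r15a, the subunit that directs a phosphatase to eIF2alpha, which went from 1692.1 and 1185.8 to 2675.4 and 2137.3 (0.75 ± 0.16, adjusted p = 0.02) and was lost without replicate 1 at 12 h (adjusted p = 0.168) or replicate 2 at 6 h (adjusted p = 0.094).

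Stc2, Slc3a2, Ndrg1 and Nupr1 completed the rises, at 0.89 ± 0.21, 0.60 ± 0.12, 0.59 ± 0.13 and 0.52 ± 0.12. Slc3a2 is the heavy chain that pairs with Slc7a5, and it went from 5740.9 and 5480.5 to 9391.9 and 7660.8 (adjusted p = 0.0119). The member that fell was Ddit4, whose product REDD1 inhibits the growth kinase complex mTORC1. It read 989.9 and 793.3 at 0 h, 3878.2 and 3779.8 at 3 h, 3425.7 and 3624.7 at 6 h, and 2130.4 and 2015.5 at 12 h (-0.76 ± 0.12, adjusted p = 0.00326). Its 12 h pair lay below the 6 h pair and above the 0 h pair. The count of 7 rises was 1 without replicate 1 at 12 h, 3 without replicate 2 at 6 h, 4 without replicate 2 at 12 h and 1 without the intensity trend.

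In the ER folding list and in the ER degradation list, of 28 tested genes each, 1 gene rose (3.57%, against 0.922% of all genes). Hspa5, the ER chaperone BiP, read 7256.4 and 7388.7 at 0 h, 7651.7 and 7469.5 at 3 h, 10847.8 and 8715.3 at 6 h, and 21669.7 and 17271.6 at 12 h. The 12 h pair stood above all other arrays (1.99-fold, log2 0.99 ± 0.13, adjusted p = 0.00185), and the call held throughout. Herpud1, an ER membrane protein that recruits the degradation machinery, read 571.7 and 634.5 at 0 h, 1162.6 and 1051.7 at 3 h, 1572 and 1920.4 at 6 h, and 3821.3 and 2858 at 12 h. Its pairs were apart at every time, and its late change of 1.90-fold (0.92 ± 0.15, adjusted p = 0.00409) was lost in 1 of 18 alternatives, the fit without the intensity trend.

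The other 27 tested genes of the ER folding list, which holds regulators such as Xbp1 beside chaperones, held 1 fall and no further rise. The median of the list was 0.04. Hsp90b1, the ER chaperone GRP94, read 3084.9 and 2931.1 and then 3344.6 and 3402.4 (0.17 ± 0.10, adjusted p = 0.389). Xbp1 read 2031.3 and 2506.4 and then 3041.2 and 3171.6, which just missed the threshold (0.46 ± 0.13, adjusted p = 0.0541), and Dnajb9, an XBP1 target and BiP cochaperone, differed by 0.36 ± 0.18 (adjusted p = 0.274). The fall was Crebrf (-0.67 ± 0.15, adjusted p = 0.0198), 3.57% of the list and near the 3.85% of all genes. That call was kept in 13 of 18 alternatives. Of 28 ER degradation and translocation genes 3 fell (10.7%, against 3.85% of all genes): Spcs3, a subunit of the signal peptidase (-0.79 ± 0.11, adjusted p = 0.00219), the Derlin gene Derl1 (-0.57 ± 0.14, adjusted p = 0.0361) and the translocon subunit Sec61b (-0.43 ± 0.11, adjusted p = 0.0448). Spcs3 held throughout, and the other pair of calls were lost in 10 and 11 alternatives.

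Of 24 cytosolic heat shock genes tested, 2 rose (8.33%, against 0.922% of all genes) and none fell, with a median of 0.11. These were the inducible Hsp70 genes Hspa1a, at 490.9 and 590.8 and then 952.2 and 1272.9 (1.02 ± 0.16, adjusted p = 0.00295), and Hspa1b, at 2497.5 and 2605.2 and then 3830.4 and 4352.4 (0.68 ± 0.12, adjusted p = 0.00708). For Hspa1a the 0 h and 3 h arrays, at 496.1 to 632.9, overlapped the 6 h pair. The genes are near-identical copies and the Hspa1b probe set is of a kind that can bind several transcripts, so the values are not separate evidence.

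Outside these lists, the rises among the brighter genes included Odc1, the rate-limiting enzyme of polyamine synthesis. It read 1122.1 and 1141.9 at 0 h, 2762.2 and 2969.9 at 3 h, 4658 and 4771.1 at 6 h, and 8179.7 and 9309.8 at 12 h, with each pair above the one before (late change 0.89 ± 0.11, adjusted p = 0.000727). Aatf, which encodes a nucleolar factor, went from 627.6 and 721.1 to 1211.1 and 1382.2 (0.94 ± 0.14, adjusted p = 0.00252). Topors, an E3 ligase for ubiquitin and SUMO, went from 1123.4 and 1421.8 to 2482.4 and 2131.4 (0.86 ± 0.15, adjusted p = 0.00682). Nifk, which encodes a nucleolar partner of Ki-67, went from 488.1 and 517.4 to 828.3 and 812.9 (0.70 ± 0.13, adjusted p = 0.00876). Odc1 and Aatf held throughout, Topors was lost without replicate 1 at 12 h (adjusted p = 0.0669) and so was Nifk (adjusted p = 0.0644). Of 37 ribosome biogenesis genes, 2.70% changed in each direction, against 0.922% higher and 3.85% lower of all genes. In this list 1 rose, Nop56 (0.44 ± 0.12, adjusted p = 0.0497), and 1 fell, Rrp1b (-0.99 ± 0.17, adjusted p = 0.00561), with a median of 0.19. The Nop56 call was kept in 6 of 18 alternatives and the Rrp1b call in 16.

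Among the called genes brighter than the median of those tested, Thbs1, Adamts1 and Ccn2 had the widest falls. Thbs1, thrombospondin 1, a matricellular protein that activates TGF-beta, read 3769.3 and 3924.8 at 0 h, 5282.3 and 5077.6 at 3 h, 2418.7 and 2754.7 at 6 h, and 616.1 and 617.4 at 12 h. All 4 pairs were apart, and the 12 h pair was the lowest (4.15-fold lower than at 6 h, log2 -2.05 ± 0.11, adjusted p = 5.66e-07). Adamts1, a secreted protease of proteoglycans, read 667.4 and 664.1 at 0 h, 1939.9 and 1862 at 3 h, 846.2 and 831.7 at 6 h, and 179.6 and 260.6 at 12 h. It was highest at 3 h and at 12 h lay below the 0 h pair (3.77-fold lower than at 6 h, log2 -1.92 ± 0.16, adjusted p = 4.62e-05). Both calls held throughout.

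Of 31 extracellular matrix genes tested 8 fell (25.8%, against 3.85% of all genes) and none rose, with a median of -0.34. Several of the falls were in collagen genes, which encode the fibres and sheets of the matrix. Col3a1 read 3382.1 and 3519.7 at 6 h and 1894.4 and 1834.7 at 12 h (-0.89 ± 0.12, adjusted p = 0.00208), Col1a1 went from 572.3 and 546.5 to 315.3 and 344.1 (-0.75 ± 0.13, adjusted p = 0.00561), and Col4a1 of basement membranes from 2548 and 2436.5 to 1578.3 and 1404.2 (-0.74 ± 0.11, adjusted p = 0.00226). At 12 h each of these collagen genes was below all 6 earlier arrays. Timp3, an inhibitor of metalloproteases, fell by 0.72 ± 0.11 on the log2 scale (adjusted p = 0.00226), and Mmp14, a membrane-bound metalloprotease, by 0.88 ± 0.15 (adjusted p = 0.00529). Col1a1 and Col3a1 are also markers of peritubular cells and fibroblasts. The summed signal of all 10 markers of those cells on the array was 9348 and 9663 at 6 h and 6512 and 7221 at 12 h. Of the 7 that passed the filter, only these 2 collagen genes were called lower (28.6%, against 3.85% of all genes). Whether a share of such cells had a part in the result was not tested.

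**Figure D3:**
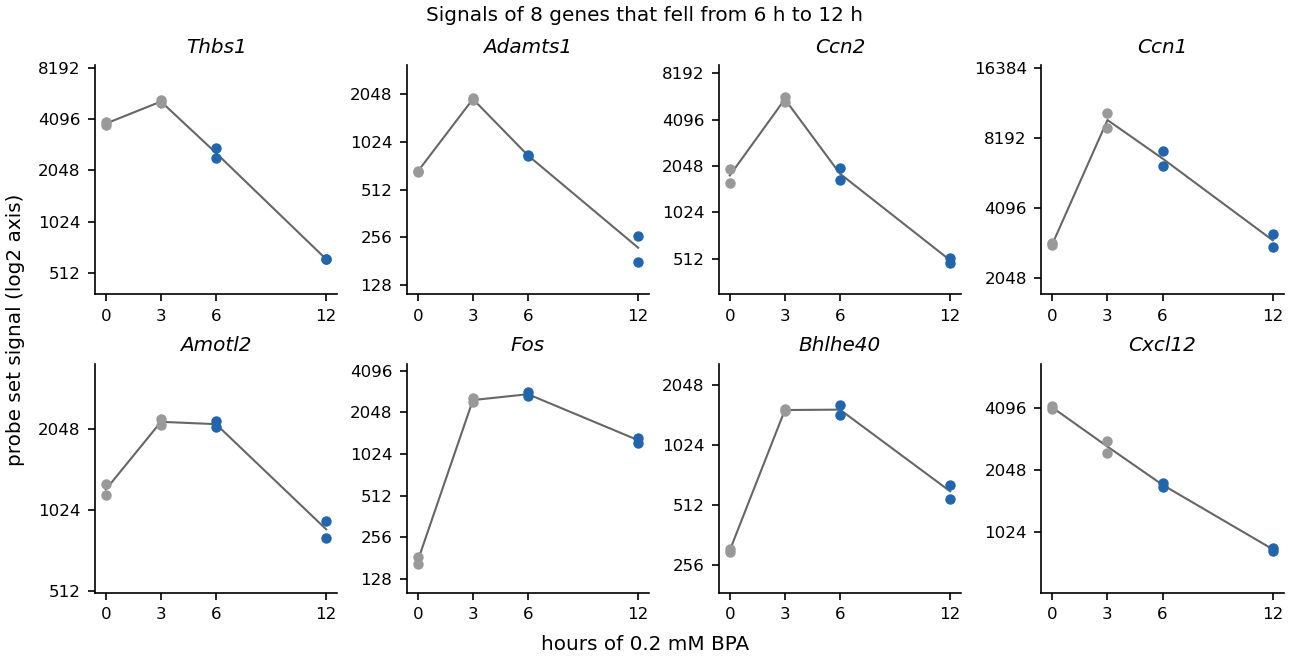
Signal of genes that fell from 6 h to 12 h (vertical axis, log scale) at 0, 3, 6 and 12 h of BPA (horizontal axis); each point is 1 array and the lines join the means of 2 arrays. Ccn2 and Adamts1 are highest at 3 h and lowest at 12 h, and Fos stays above its 0 h level at 12 h.

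Of 33 immediate early and AP-1 genes tested, 14 fell (42.4%, against 3.85% of all genes) and none rose, and the median change was -0.44. Klf2 went the other way and just missed the threshold (0.82 ± 0.22, limma adjusted p = 0.0524). In 5 of the alternatives 1 member of the list was called higher. Fos, the AP-1 subunit, read 184.3 and 163.4 at 0 h, 2440.4 and 2596.3 at 3 h, 2880.7 and 2673.6 at 6 h, and 1241.2 and 1340.7 at 12 h. The 3 h and 6 h arrays stood close together, and the 12 h pair lay between them and 0 h (-1.10 ± 0.12, adjusted p = 0.000303). Ier2 followed the same order, at 834.7 and 729, 6357.2 and 6968.7, 6886.7 and 4827.2, and 2564.8 and 2714.9 (-1.13 ± 0.15, adjusted p = 0.00166). Its 3 h and 6 h arrays overlapped and its 12 h pair was above 0 h.

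Nr4a1, an orphan nuclear receptor gene, read 227.4 and 264.6 at 0 h, 1834.4 and 1734.2 at 3 h, 942.8 and 810.5 at 6 h, and 442.4 and 445.6 at 12 h (-0.96 ± 0.13, adjusted p = 0.00207). Its 6 h pair already lay below its 3 h pair. Klf10, a zinc finger gene induced by TGF-beta, read 277.8 and 275.7, 2940.7 and 2423.7, 3231.6 and 3221.4, and 1543 and 1918.7 (-0.90 ± 0.13, adjusted p = 0.0023). Egr1, a zinc finger transcription factor gene, read 994.6 and 1101.6, 14135.2 and 13967.7, 11507.1 and 9475.3, and 5122.9 and 7101.4 (-0.79 ± 0.15, adjusted p = 0.00866). The 12 h arrays of Egr1, Klf10 and Nr4a1 were below the 6 h pairs and above the 0 h pairs. Fos, Ier2, Nr4a1 and Klf10 held throughout, and Egr1 was lost in 3 alternatives.

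Spry2, Dusp6 and Errfi1, which encode feedback inhibitors of receptor and MAP kinase signalling, fell by 1.04 ± 0.15, 0.54 ± 0.11 and 0.44 ± 0.10 on the log2 scale. Spry2 went from 746.2 and 942.9 to 378 and 429.7, below its 0 h arrays of 465.2 and 566.2. Errfi1 remained far above its 0 h arrays of 427.6 and 408.1, at 1829.7 and 1810.6. The Errfi1 call (limma adjusted p = 0.0311) was kept in 7 of 18 alternatives, against 17 for Spry2 and 15 for Dusp6. Klf6 had the widest error of the list's falls (-1.11 ± 0.21, adjusted p = 0.00879), and without replicate 1 at 12 h it was not called (-0.78, adjusted p = 0.0815). Myc fell by 0.43 ± 0.10 on the log2 scale (adjusted p = 0.0349), a call lost in 11 alternatives. Jun, the partner of Fos, read 4058 and 4195.4 and then 3294.2 and 4046.1 (-0.18 ± 0.12, adjusted p = 0.458), and Klf4 differed by -0.11 ± 0.16 (adjusted p = 0.752), with the sign turned without replicate 2 at 6 h and over the mean of its probe sets. The count of 14 falls was 9 without replicate 1 at 12 h and 7 without the intensity trend.

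The list of YAP and TEAD targets also holds Yap1 and Tead1 themselves. Of its 16 tested members 8 fell (50%, against 3.85% of all genes) and none was called higher, with a median of -0.63. The highest change of the list was that of Tead1 (0.83), which was not called. Ccn1 and Ccn2 are counted in this list and among the immediate early genes, so the lists are not independent. Ccn2, a matricellular growth factor gene, read 1958.7 and 1596.3 at 0 h, 5755.5 and 5343.4 at 3 h, 1976.9 and 1673.4 at 6 h, and 519.1 and 483.6 at 12 h. Its 0 h and 6 h arrays overlapped, and the 12 h pair was lower than all of them (3.59-fold lower than at 6 h, log2 -1.84 ± 0.13, adjusted p = 1.14e-05). Ccn1, its relative, read 2892.6 and 2840.5, 10503.4 and 9046, 6173 and 7180.7, and 3156.5 and 2793.5 (-1.16 ± 0.12, adjusted p = 0.000254). At 12 h the Ccn1 arrays overlapped those at 0 h. Amotl2, which encodes an angiomotin that binds and restrains YAP, was level at 3 h and 6 h, at 2122.1 and 2245.4 and then 2083.3 and 2198.6, and read 808 and 930 at 12 h. That was below its 0 h arrays of 1278.8 and 1167.6 (late change -1.30 ± 0.12, adjusted p = 8.5e-05).

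Ankrd1, an ankyrin repeat protein gene, fell from 1211.8 and 941 to 621.9 and 607.8 (-0.79 ± 0.15, adjusted p = 0.00879). Ajuba, a LIM protein gene, fell from 803 and 987.3 to 424.1 and 600.3 (-0.81 ± 0.16, adjusted p = 0.0125), and Crim1 from 1024.6 and 1124.4 to 745.3 and 579.9 (-0.70 ± 0.14, adjusted p = 0.0144). Yap1 itself fell from 1244.5 and 1375.7 to 749.5 and 1048.2 (-0.56 ± 0.15, adjusted p = 0.0487), a call lost in 13 of 18 alternatives. Lats2, a kinase gene of the pathway, was dim, at 116.9 and 184.4 and then 64.3 and 65.6 (-1.09 ± 0.26, adjusted p = 0.0299), and over the mean of its probe sets the change was 0.01. Ccn1, Ccn2 and Amotl2 held throughout. The count of 8 falls was 4 when either replicate 1 at 12 h or replicate 2 at 6 h was left out, 5 over the mean of all probe sets and 3 without the intensity trend.

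**Figure D4:**
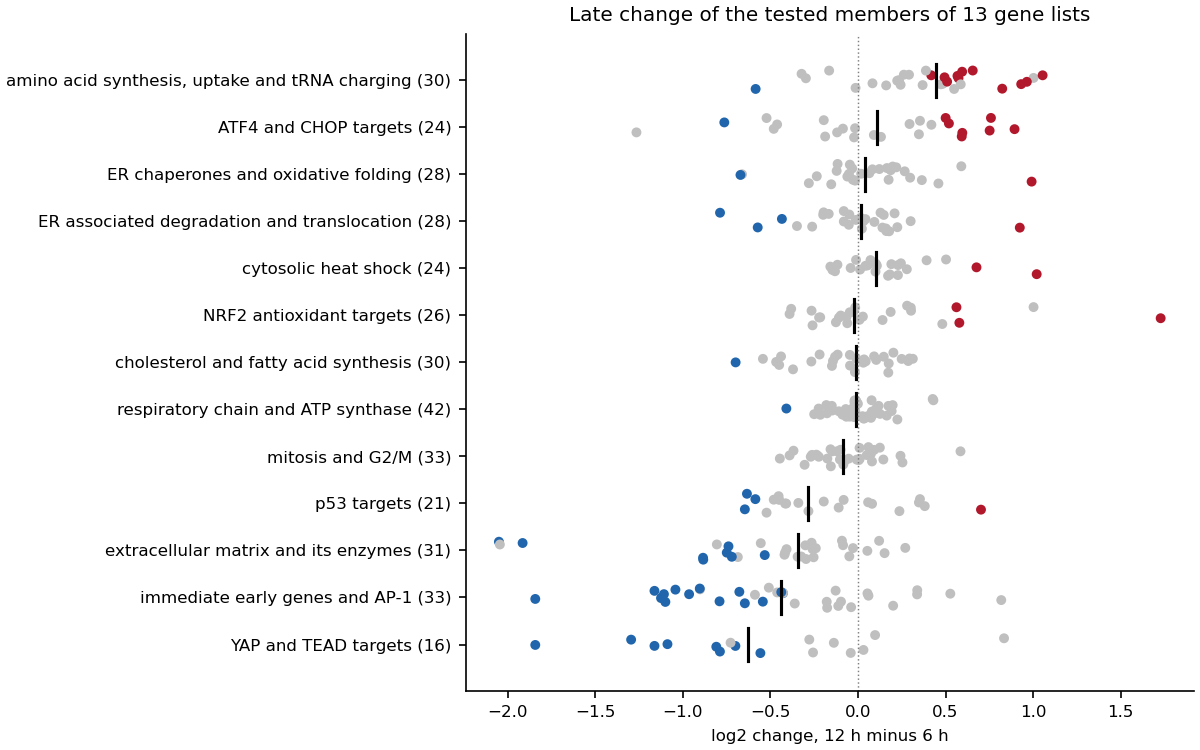
Log2 change from 6 h to 12 h (horizontal axis) of every tested member of selected gene lists (rows), each point 1 gene and each bar the list's median; coloured points are called genes. The amino acid list has a median of 0.45, and the immediate early and YAP lists have medians of -0.44 and -0.63.

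Outside these lists Bhlhe40, Id3 and Id1 were among the falls. Bhlhe40, a basic helix-loop-helix repressor gene of the circadian system, read 298.9 and 308.9 at 0 h, 1504.6 and 1549.3 at 3 h, 1625.4 and 1442.2 at 6 h, and 551.9 and 647.4 at 12 h. Its 3 h and 6 h arrays overlapped, and the 12 h pair was below them (-1.35 ± 0.13, adjusted p = 0.000142). Id3 and Id1, which encode inhibitors of helix-loop-helix factors and are targets of BMP signalling, fell together. Id3 went from 9257.3 and 6934.6 to 3703.2 and 3309.5 (-1.19 ± 0.14, adjusted p = 0.000554), and Id1 from 2527 and 2382.8 to 1309.9 and 974.6 (-1.11 ± 0.16, adjusted p = 0.00208). At 12 h the arrays of both overlapped those at 0 h, which were 3316.2 and 3455.3 for Id3 and 1035.1 and 1046.9 for Id1.

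Cxcl12, the chemokine of stromal cells, was lower at each later time. It read 4039.6 and 4212.7 at 0 h, 2478.8 and 2845.6 at 3 h, 1696 and 1771.5 at 6 h, and 856.4 and 828 at 12 h, with no overlap between times (late change -1.03 ± 0.11, adjusted p = 0.000303). Efnb2, the ligand ephrin-B2, fell from 1373.9 and 1737.3 to 537.2 and 708.2 (-1.31 ± 0.15, adjusted p = 0.000437). Olfml2b, a secreted olfactomedin-like gene, was between 1386.7 and 1745.4 at all earlier times and read 630.1 and 741.6 at 12 h (-1.19 ± 0.13, adjusted p = 0.000303). Unc50 fell from 612.4 and 629.6 to 222.8 and 231.9 (-1.42 ± 0.12, adjusted p = 8.5e-05). Mcl1, a survival member of the BCL2 family, fell from 1630.2 and 1589.5 to 1068.3 and 772.2 (-0.82 ± 0.14, adjusted p = 0.00628). Ccnd1, the cyclin of early G1, fell from 686.2 and 549.8 to 366.9 and 423.6 (-0.63 ± 0.14, adjusted p = 0.0249), a call lost in 8 alternatives. Cxcl12, Efnb2, Olfml2b, Unc50, Bhlhe40 and Id3 held throughout.

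Of 21 p53 targets 3 fell, Btg2, Plk2 and Sesn1 (14.3%, against 3.85% of all genes), and 1 rose (4.76%, against 0.922%), the ribonucleotide reductase subunit Rrm2b, which went from 760.2 and 951.8 to 1364.6 and 1414.7 (0.70 ± 0.14, adjusted p = 0.0128). Btg2 is also counted among the immediate early genes. The calls of Plk2, Sesn1 and Rrm2b were kept in 13, 14 and 14 of 18 alternatives. The falls numbered 0 without the intensity trend and 6 with the replicate number as a block. Without the trend no member rose. The best known p53 targets were not called: Cdkn1a differed by -0.28 ± 0.12 (adjusted p = 0.214) and Mdm2 by -0.11 ± 0.11 (adjusted p = 0.629), and both signs turned in 1 alternative. In the cholesterol and fatty acid list 1 of 30 fell (3.33%, near the 3.85% of all genes), Insig2, which encodes an ER anchor of the SREBP escort (-0.70 ± 0.11, adjusted p = 0.00409). Hmgcs1, an early enzyme of the pathway, read 20005 and 15962.5 and then 13530.4 and 12339.1 and just missed the threshold (-0.47 ± 0.13, adjusted p = 0.0541). Mt1, a metallothionein, differed by -0.12 ± 0.13 (adjusted p = 0.678), with its sign turned without replicate 1 at 6 h, and the growth factor gene Vegfa by 0.35 ± 0.16 (adjusted p = 0.244).

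How the falling genes had moved at the start of the exposure was read from the step from 0 h to 3 h, which shares no array with the late step. In that step 742 genes rose (8.55% of those tested) and 306 fell (3.53%). Of the 742 early risers 64 were lower at 12 h than at 6 h (8.63%) and 25 were higher (3.37%). Of the 306 early fallers 22 fell again late (7.19%), a share near that of the early risers, and 2 rose late. Of the 7627 genes not called early, 248 fell late (3.25%) and 53 rose late (0.695%). The 64 genes are 19.2% of the 334 late falls, and the 25 are 31.2% of the 80 late rises, so early risers took a larger share of both late groups than the 8.55% they hold of all genes. Among the 212 genes that rose at least 2-fold early, 33 fell late (15.6%) and 10 rose late (4.72%), and their median late change was -0.14. Across all genes the early and late changes had a correlation of 0.02 (Pearson, 8675 genes, which are not independent replicates). The steps share each gene's estimated spread and brightness, so a gene measured tightly is more easily called in both, and this comparison was added after the data were seen. The count of 64 was 28 without replicate 1 at 12 h, 31 and 36 without replicates 1 and 2 at 0 h, and 40 and 39 without replicates 1 and 2 at 3 h.

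**Figure D5:**
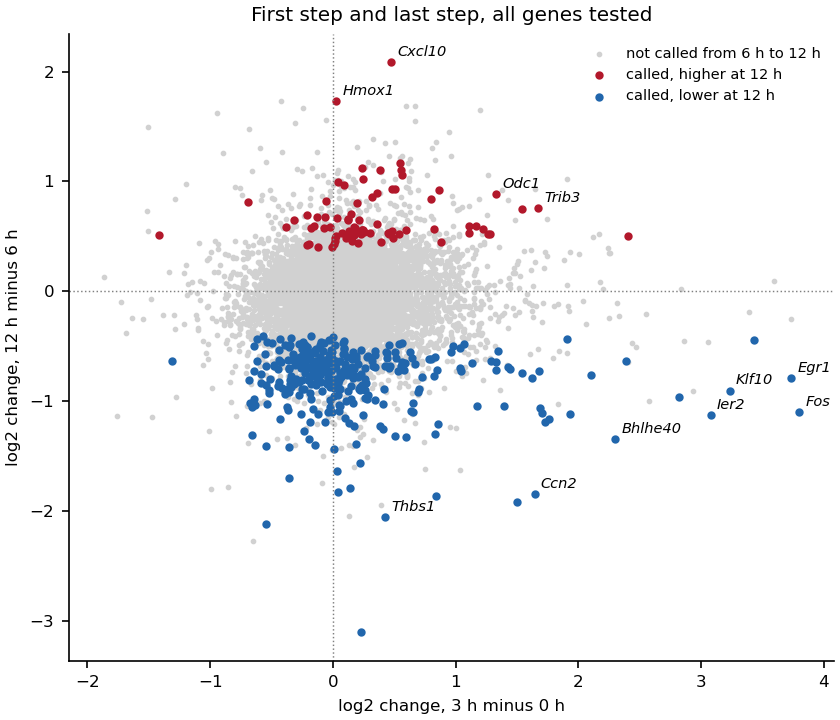
Log2 change from 6 h to 12 h (vertical axis) against log2 change from 0 h to 3 h (horizontal axis) for the 8675 genes tested; coloured points are the genes called in the late step. Fos, Egr1 and Ier2 lie at the lower right, higher at 3 h and lower at 12 h, and Cxcl10 and Hmox1 lie at the top near the middle.

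Whether the late step differed from the step before it, from 3 h to 6 h, was tested as the difference of the 2 changes. No gene passed (0.0% of 8675, limma with Benjamini-Hochberg adjustment), 616 had an unadjusted p under 0.05, and the smallest adjusted p was 0.104. Genes with that value included Amotl2 (-1.27 ± 0.20), Fos (-1.24 ± 0.20) and Bhlhe40 (-1.35 ± 0.22), each level from 3 h to 6 h and lower at 12 h. The error of such a difference is wider than that of a single step, and Tars, flat until 6 h, had a difference of 0.98 ± 0.23 (adjusted p = 0.32). The count was 3 without replicate 2 at 6 h, 4 with the replicate number as a block and 1 over the mean of all probe sets. By this test no change described here was shown to be particular to the hours after 6 h, and the steps differ in length.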

How the data were processed

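RNA was measured on 8 one-colour arrays, 2 at each of 4 times, grouped by the sample titles. Each deposited value is an intensity signal of a probe set on a linear scale; the summary software is not given in the sources used here. Judged by its values, the authors' arrays share 1 trimmed mean (499.955 to 499.959, leaving out 2% at each end), so a general shift of RNA would not be seen. Detection calls were not used here.

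Of 22690 probe sets, 64 were controls, 20380 had 1 gene symbol, 691 several and 1555 none. Symbols of 20351 were updated through Entrez identifiers to RefSeq (GRCm38.p6) and 29 were kept, which gave 12393 genes. Genes lacking their own probe set were not analysed here. Named genes read by _s_at or _x_at probe sets, which can bind several transcripts, are Ccn1, Derl1, Sesn1, Hspa1b, Ndrg1, Nop56, Lats2, Mcl1, Clu, Xbp1 and Mt1.

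The offset of 7.9 is the 10th percentile of all signals. Genes above the 30th percentile of mean log2 signal were tested (8675; 3718 removed). In R 4.3.3, limma 3.58.1 fitted a mean per time over 8 arrays (lmFit, eBayes with an intensity trend; 4 residual and 9.00 prior degrees of freedom), two-sided, with Benjamini-Hochberg adjustment over all genes and calls under 0.05. On simulated data for this comparison (10 runs, 200 changed of 8675 genes), the fit found 80.3% of 2-fold and 96.4% of 4-fold changes, with 7.08% false among its calls.

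Named genes were the top 15 rises and top 15 falls among called genes brighter than the median, up to 4 called members of each list with the largest change, and 32 set genes where the array holds them; further list members, such as Stc2, Slc3a2 and the rest of the 11 and 7 rises, complete the counts and were chosen after their values were seen. The 33 lists hold 968 entries, 874 on the array. Members and lists were chosen with earlier results of these data known. The alternatives tried were scaling to the same median, quantile normalization, offsets of 1.975 and 31.6, no filter or the 50th percentile, no trend, only the groups compared, a replicate block, the mean over all probe sets, and each array left out.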

Additional observations from a re-analysis of the deposited data

How the results depend on the processing

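The 414 changed genes became 274 without a filter, 114 without the intensity trend and 173 from only the groups compared; leaving out single arrays gave 154 to 428. The 80 higher genes became 184 with arrays at the same median, 46 without a filter, 22 without the trend and 33 from only the groups compared, and 20 to 129 with an array left out. The 334 lower genes became 199, 92 and 140 with arrays at the same median, without the trend and from only the groups compared, and 134 to 299 with an array left out. Genes that rose early and fell late, 64, became 39 with arrays at the same median, 17 without the trend and 28 to 59 with an array left out. The fit of only the groups compared could not give that count. Genes whose late step differed from the step before, 0, became 1 over the mean of all probe sets and 0 to 3 with an array left out. The replicate number as a block gave 703 changed genes, 169 higher and 534 lower, and 4 with a difference between steps. Deviations of same-numbered arrays correlated between -0.011 and 0.122 over the 6 pairs of times, with the highest value for 6 h and 12 h. Such weak correlations cannot tell whether same-numbered arrays share a culture or a run. Fewer arrays leave fewer degrees of freedom; the cause of the other shifts was not tested. Of 1545 values of named genes under the alternatives, 1279 kept direction and side of the threshold, 249 lost the call, 10 gained it and 7 turned sign: Lats2 (0.0087), Klf4 (0.0197) and Cdkn1a (0.125) over the mean of all probe sets, Atf4 (0.0198) with arrays at the same median, and 3 with an array left out, where Klf4 ranged from -0.38 to 0.155, Mdm2 from -0.233 to 0.0122 and Mt1 from -0.297 to 0.0661. Signals near the offset limit the dim genes, whose changes are understated.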

Other observations

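In lists of growth and housekeeping genes 0 or 1 member was called, where 4.77% of all genes were called. Lists of this size hold too few genes to tell such counts from that share. Of all 8675 genes tested, 1740 had an unadjusted limma p under 0.05 in either direction, which is the background for the unadjusted counts given here. Of 36 DNA replication genes none was called by limma after adjustment, with 3 higher and 4 lower at an unadjusted p under 0.05, and of 33 mitosis genes none was called, with 0 higher and 3 lower. Of 29 cytosolic ribosomal protein genes none was called, with 1 higher and 1 lower unadjusted. Of 42 respiratory chain and ATP synthase genes 1 was called, the cytochrome oxidase subunit Cox7a2 (-0.41 ± 0.11, adjusted p = 0.0483), which read 10258.2 and 11070.2 at 0 h, 6506.6 and 5697.5 at 6 h, and 4659.5 and 4507.7 at 12 h, a call lost in 12 of 18 alternatives. Of 33 proteasome genes 1 was called, Psme3, a subunit of the nuclear PA28 activator, which rose from 918.1 and 817.8 to 1332.6 and 1265.5 (0.58 ± 0.12, adjusted p = 0.0139). The medians of these 5 lists lay between -0.08 and 0.06.

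Some called changes lay below the brightness limit for the leading genes, and those given here were chosen after their values were seen. Pla2g15, a lysosomal phospholipase gene, read 164 and 161.6 at 0 h, 205.5 and 180.7 at 3 h, 159.9 and 165.1 at 6 h, and 16.1 and 8.5 at 12 h (-3.10 ± 0.30, adjusted p = 0.000156). The 12 h signals are near the offset of 7.9. Chst15, a sulfotransferase gene, read 78.4 and 119.3 at 6 h and 19.2 and 13.6 at 12 h (-2.12 ± 0.30, adjusted p = 0.00214), and Daglb, a diacylglycerol lipase gene, went from 188.1 and 193.2 to 49 and 64.2 (-1.63 ± 0.25, adjusted p = 0.0031). Etv5, an ETS family transcription factor gene, rose from 191.3 and 186.5 to 434.6 and 398.6 (1.11 ± 0.20, adjusted p = 0.00804). Star, a Leydig cell marker and the cholesterol carrier of steroid-making cells, rose from 319.8 and 266.9 to 490.6 and 436.2 (0.65 ± 0.15, adjusted p = 0.0314), a call lost in 9 alternatives. The Leydig cell enzymes Cyp11a1, Cyp17a1 and Hsd3b1 did not pass the filter.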
